A study of Ambystoma mexicanum with 49 samples.

Results

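HAND1, MYBPC3 and ACTC1 are 3 genes of the developing heart, taken by name from the 15631 genes of the deposited tables and followed through the embryogenesis of the axolotl (Ambystoma mexicanum, a salamander). All 3 names were present once, and all 3 passed the filter on low counts. Poly(A) RNA of 49 whole embryos, each its own library, was sequenced at 17 stages: 1 to 12, 14, 16, 19, 24 and 40. There were 15 stages with 3 embryos each, and stages 1 and 11 had 2. The labels give no strain, treatment or genotype and one temperature for all embryos, so stage is the only labelled factor that separates the groups. They give no batch either, and one that ran with stage could not be told apart from it. Every value is for a whole embryo, and more heart cells and more RNA per heart cell cannot be told apart in it.

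HAND1 is a basic helix-loop-helix transcription factor that pairs with E proteins or with its relative HAND2, and in the mouse it is known from the lateral mesoderm, the extraembryonic mesoderm and the looping heart tube. MYBPC3 encodes cardiac myosin-binding protein C, a thick-filament protein that tunes how myosin heads meet actin in heart muscle, and mutations in the human gene are a common cause of hypertrophic cardiomyopathy. ACTC1 encodes cardiac alpha-actin, the thin-filament actin of heart muscle, which vertebrate embryos also make in their early skeletal muscle. The set therefore holds 1 regulator and 2 components of the contractile apparatus.

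Libraries held 12.0 to 44.9 M estimated counts. Levels are given in TPM, a relative abundance of poly(A) transcripts that corrects for gene length and library total. A change in the amount of an RNA and a change in its poly(A) tail cannot be told apart in these libraries. This holds for the changes from stage 1 to stage 8 as well. Changes between stages are log2 changes ± SE from the edgeR quasi-likelihood test on the estimated counts of all genes. A gene is called changed at an adjusted p under 0.05 after Benjamini-Hochberg adjustment over the 14437 genes tested in that comparison. Each member was called at 3 of the 16 steps between neighbouring stages, but the steps were not the same ones for all 3, as the plot of levels shows. How many genes of the whole table were called differed widely between steps. In order from stage 1 it was 32.7%, 0.0%, 0.0%, 0.0139%, 0.263%, 0.0416%, 0.111%, 15.8%, 3.72%, 0.0554%, 37.3%, 52.3%, 0.443%, 3.11%, 24.1% and 68.6% of the 14437 tested, so a member's lack of a call from stage 2 to 8 is shared with nearly all genes. At the steps from 2 to 3 and 3 to 4, where edgeR called 0 genes, 568 and 612 had an unadjusted p under 0.05, and the DESeq2 Wald test called 5 higher and 25 lower at the first and 1 and 2 at the second.

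**Figure D1:**
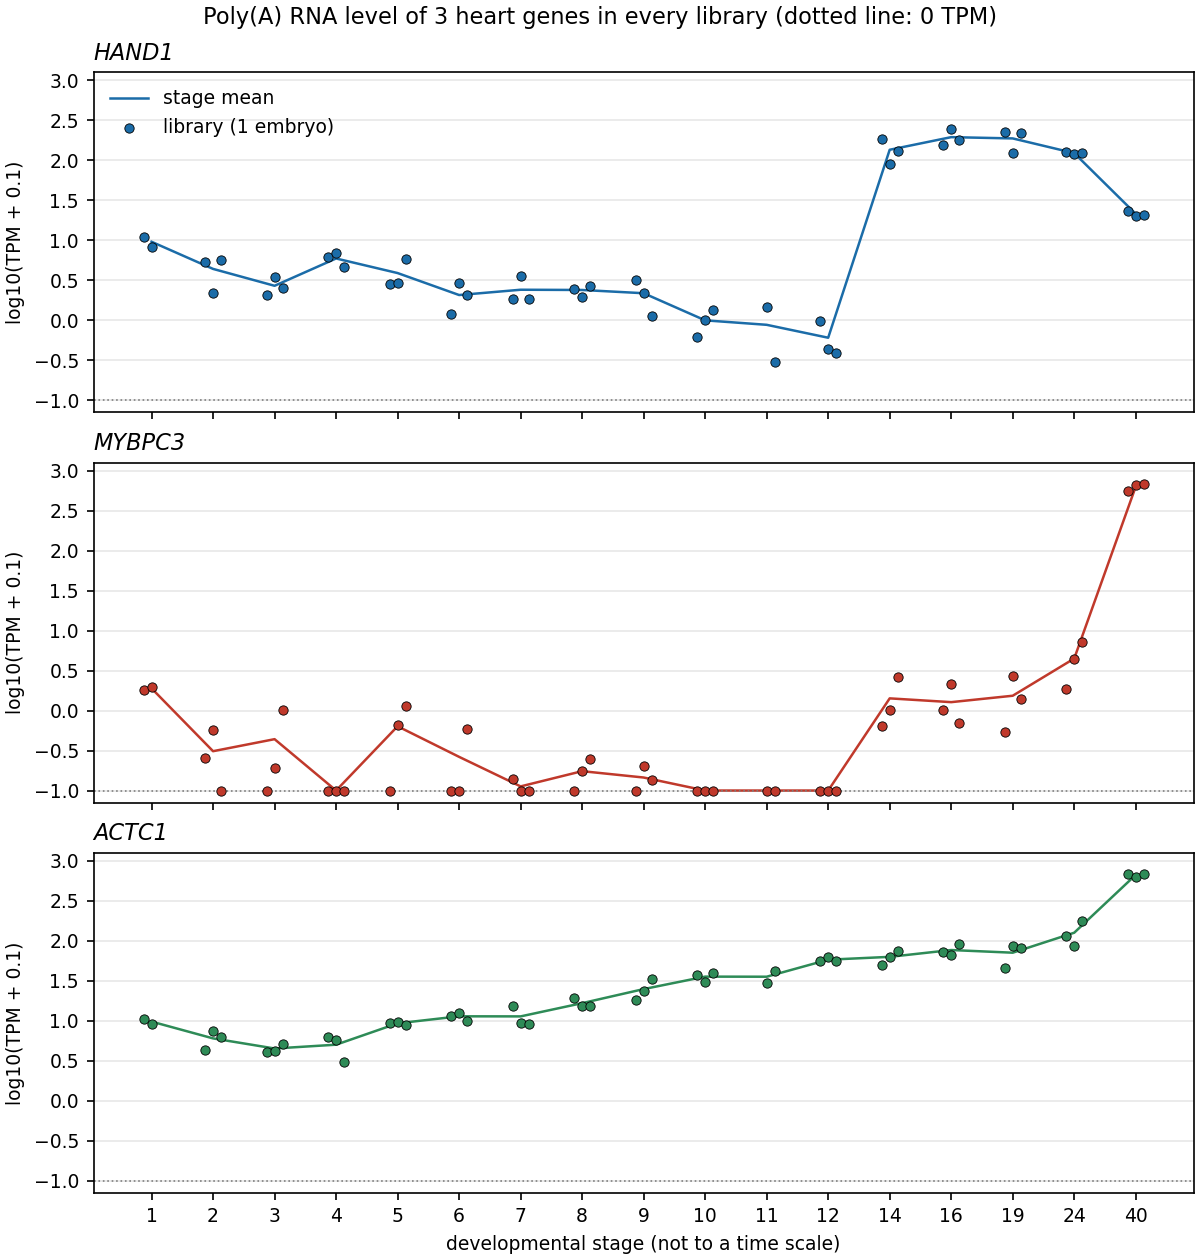
Level of HAND1, MYBPC3 and ACTC1 in each of the 49 libraries, as log10(TPM + 0.1) on the vertical axis against stage; points are single embryos, lines join stage means, and the dotted line marks 0 TPM. HAND1 jumps between stages 12 and 14 and is lower at stage 40, MYBPC3 is at or under 1.05 TPM from stage 2 to stage 12 and reaches 557 to 675 TPM at stage 40, and ACTC1 climbs in smaller steps from stage 3 to stage 16 and again to stage 40.

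HAND1, the transcription factor, was low at stages 10 to 12 and highest at stages 14 to 24, with intermediate levels at both ends of the series. In the fertilized egg (stage 1) the libraries held 10.9 and 8.05 TPM. At stage 2 they held 5.23, 2.11 and 5.51 TPM, at stage 3 1.99, 3.38 and 2.42 TPM, and at stage 4 6.14, 6.73 and 4.58 TPM. The stage 1 libraries lay above all libraries of stages 2 to 12. Stage 5 held 2.76, 2.84 and 5.77 TPM, stage 6 1.11, 2.85 and 1.94 TPM, stage 7 1.73, 3.45 and 1.74 TPM, and stage 8 2.39, 1.87 and 2.61 TPM. Neighbouring stages from 4 to 8 overlapped. Values were lower again, with overlaps between neighbours, at stages 9 (3.12, 2.07 and 1.04 TPM), 10 (0.513, 0.919 and 1.26 TPM), 11 (1.35 and 0.204 TPM) and 12 (0.888, 0.335 and 0.291 TPM). HAND1 rested on 18 estimated counts over the 3 stage 12 libraries, and only stage 11, with its 2 libraries, held fewer (12.9).

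Against stage 1, HAND1 fell by 2.40 ± 0.45 on the log2 scale by stage 8, from 9.48 ± 2.02 (SD, n = 2) to 2.29 ± 0.381 TPM (SD, n = 3; adjusted p = 2.05e-05, edgeR). Measured from stage 2 instead, chosen after seeing the data, it still fell, by 1.24 ± 0.45 (adjusted p = 0.0229, edgeR), although the libraries of stages 2 and 8 overlapped, with 18.9% of genes tested called lower. The first step alone, stage 2 against stage 1, gave a fall of 1.17 ± 0.42 (adjusted p = 0.0309, edgeR), at a step where 11.1% of all genes tested were called lower. That call was lost without stage 1 replicate 1 (log2 change −0.91), without stage 2 replicate 2 (−0.83) and without stage 2 replicate 3 (−1.30). From stage 8 to stage 12 the change was −1.02 ± 0.59 (adjusted p = 0.136, edgeR), although the TPM of the stage 12 libraries all lay below those of stage 8. TPM and the fit scale the libraries differently here: with library size alone the change was −2.01 and was called, and it was also called without stage 12 replicate 1 (−1.91).

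The jump of HAND1 came between stages 12 and 14. Stage 14 libraries held 185, 89.4 and 131 TPM, a mean of 135 ± 47.8 TPM (SD, n = 3) against 0.505 ± 0.333 TPM at stage 12. The lowest stage 14 embryo was far above the highest stage 12 embryo, and no other fitted step of the 3 genes was as large. HAND1 rose 281-fold (log2 change 8.13 ± 0.49, adjusted p = 7.4e-16, edgeR), while 27.4% of genes tested were called higher between these stages. Without stage 12 replicate 1, the highest of its stage, the log2 change was 9.02. In the order of mean TPM over the whole table HAND1 moved from rank 11535 of 15631 at stage 12 to rank 1144 at stage 14.

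HAND1 then stayed high for 4 stages. Its level was 157, 245 and 181 TPM at stage 16, 223, 122 and 217 TPM at stage 19, and 127, 118 and 123 TPM at stage 24. In order of stage means stage 16 (194 ± 45.3 TPM) came first, then 19 (187 ± 56.9), 14 (135 ± 47.8) and 24 (123 ± 4.1), and libraries of neighbours in this order overlapped. The step from stage 19 to 24 gave −0.78 ± 0.31 (adjusted p = 0.0638, edgeR), which was called only when stage 19 replicate 2, the lowest of its stage, was left out (−1.03). At stage 40 the libraries held 23.4, 20.0 and 20.4 TPM. HAND1 fell 6.81-fold from stage 24 to stage 40 (log2 change −2.77 ± 0.33, adjusted p = 4.23e-09, edgeR), with no overlap between the libraries, and stage 40 still lay above stage 1. At this step 30.9% of genes tested were called lower.

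MYBPC3, the thick-filament protein, was at or under 1.05 TPM in every library from stage 2 to stage 12 and was abundant only at stage 40. The stage 1 libraries held 1.72 and 1.87 TPM. Stage 2 held 0.152, 0.479 and 0 TPM, and stage 3 0, 0.0903 and 0.926 TPM. At stage 4 all 3 libraries were at 0, stage 5 held 0, 0.558 and 1.05 TPM, and stage 6 held 0, 0 and 0.491 TPM. Between stages 2 and 6 MYBPC3 was thus scattered, with at least 1 library at 0 at every stage and single embryos near 1 TPM. Stage 7 held 0.038, 0 and 0 TPM, stage 8 0, 0.076 and 0.148 TPM, and stage 9 0, 0.0999 and 0.0365 TPM. All 8 libraries of stages 10, 11 and 12 were at 0, and 0 counts in a stage allow up to 3 counts over its libraries.

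Between stages 1 and 8 MYBPC3 fell 36.4-fold, with a 95% exact counting interval of 11.8 to 182, since stage 8 rested on 3 counts against 52 at stage 1 (adjusted p = 0.0011, edgeR). That ratio moved to 19.9-fold without stage 8 replicate 1 and 78.9-fold without stage 8 replicate 3. Against stage 2 in place of stage 1, a comparison chosen after seeing the data, it was 4.90-fold lower with an interval of 1.32 to 27.1 and was not called (adjusted p = 0.345, edgeR). At the first step, stage 2 against stage 1, the log2 change was −2.87 ± 1.00 (adjusted p = 0.0272, edgeR). That call was lost with the DESeq2 Wald test (−3.08), in a fit of the 2 stages alone (−2.98), and without stage 1 replicate 1 (−2.91), stage 1 replicate 2 (−2.84), stage 2 replicate 1 (−2.65) or stage 2 replicate 3 (−2.41).

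The stage 1 libraries carried other muscle RNA as well. The 24 skeletal muscle genes in the table summed to 233 and 544 TPM at stage 1, against 17.6 to 23.2 TPM at stage 4. As a percentage of the stage 40 mean, MYBPC3 stood at 0.272% and 0.296% in the stage 1 libraries, the skeletal actin ACTA1 at 0.154% and 0.424%, and muscle creatine kinase CKM at 0.211% and 0.407%. The cardiac genes MYH6 (1.88% and 2.80%), MYL7 (3.08% and 2.58%) and TNNT2 (1.07% and 0.898%) stood higher in this percentage. ACTC1 was at 1.55% and 1.34%, and HAND1 at 51.2% and 37.8%. These few genes do not stand for their lists. Of other skeletal muscle genes, the stage 1 mean was 3.98% of the stage 40 mean for MYH3, 0.652% for ATP2A1 and 0.448% for CASQ1. In the cardiac sarcomere list it was 0.809% for DES and 4.28% for LDB3. In TPM, stage 1 held 6.75 and 10.1 of MYH6, 1.88 and 1.57 of MYL7 and 0.282 and 0.237 of TNNT2. CKM held 39.0 and 75.1 TPM there. The 26 cardiac sarcomere genes in the table summed to 135 and 165 TPM at stage 1, against 96.1 to 105 TPM at stage 4. Whether the muscle RNA of these 2 libraries has a part in the falls of MYBPC3 from stage 1 was not tested. The skeletal muscle sum was also raised in stage 3 replicate 3 (57.4 TPM), stage 5 replicate 3 (141 TPM) and stage 6 replicate 3 (79.1 TPM), which were the libraries with the most MYBPC3 of their stages. In stage 7 replicate 3, whose sum was 73.3 TPM, MYBPC3 was at 0.

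MYBPC3 returned at stage 14, with 0.539, 0.920 and 2.50 TPM. It rose at least 30.1-fold over stage 12, counted against a floor of 3 counts over the stage (adjusted p = 0.000682, edgeR), at the same step as HAND1. The bound was 16.1-fold without stage 12 replicate 1 and 19.0-fold without stage 14 replicate 3. Stage 16 held 0.910, 2.02 and 0.590 TPM, and stage 19 held 0.434, 2.57 and 1.29 TPM, so the libraries of stages 14 to 19 overlapped. MYBPC3 at stage 19 was at least 38.3-fold higher than at stage 12 (adjusted p = 0.000134, edgeR), with bounds of 20.5-fold without stage 12 replicate 1 and 23.9-fold without stage 19 replicate 2. At stage 24 the embryos held 1.75, 4.36 and 7.00 TPM. The change from stage 19 was 1.35 ± 0.61 on the log2 scale (adjusted p = 0.106, edgeR), and was called only without stage 24 replicate 1 (1.72).

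At stage 40 MYBPC3 stood at 557, 662 and 675 TPM. Its mean of 631 ± 64.5 TPM (SD, n = 3) compared with 4.37 ± 2.62 TPM at stage 24, a rise of 124-fold (log2 change 6.96 ± 0.60, adjusted p = 1.67e-11, edgeR), and 37.7% of genes tested were called higher at this step. The lowest stage 40 embryo lay far above the highest stage 24 embryo. MYBPC3 moved from rank 8974 of 15631 at stage 24 to rank 270 at stage 40.

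ACTC1, the thin-filament actin, was detected in all 49 libraries and climbed over most of the series. It held 10.4 and 8.97 TPM at stage 1, 4.27, 7.33 and 6.20 TPM at stage 2, and 4.01, 4.13 and 5.09 TPM at stage 3, its lowest stage. Stage 4 held 6.21, 5.63 and 2.96 TPM, and stage 5 held 9.34, 9.55 and 8.73 TPM. The stage 5 embryos all lay above those of stages 2 to 4, yet edgeR called no step before the one from stage 11 to 12. The step from stage 1 to 2 (−0.72, adjusted p = 0.0777, edgeR) was called lower with DESeq2 size factors and the DESeq2 Wald test (−0.83 in both) and with library size alone (−0.80), and that from stage 8 to 9 was called higher with the Wald test (0.68). Stage 6 held 11.4, 12.6 and 9.87 TPM, stage 7 15.4, 9.37 and 9.02 TPM, and stage 8 19.1, 15.2 and 15.3 TPM. Levels went on upward at stage 9, with 17.9, 23.2 and 33.4 TPM, stage 10, with 36.8, 30.8 and 39.2 TPM, and stage 11, with 29.7 and 41.3 TPM. At stage 12 the libraries held 55.7, 62.0 and 56.3 TPM, above all earlier libraries.

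From stage 1 to stage 8 the log2 change of ACTC1 was 0.41 ± 0.30 and was not called (adjusted p = 0.249, edgeR), although the TPM of the libraries did not overlap. Measured from stage 2 instead, a comparison chosen after seeing the data, it rose by 1.13 (adjusted p = 0.00114, edgeR), with 24.9% of genes tested called higher. From stage 8 to stage 12 ACTC1 rose 6.79-fold (log2 change 2.76 ± 0.26, adjusted p = 6.5e-12, edgeR), from 16.5 ± 2.18 to 58.0 ± 3.46 TPM (SD, n = 3 each). In TPM the ratio is smaller than in the fit, which scales libraries by TMM, and with library size alone the log2 change was 1.78. The one neighbouring step called in this span was stage 12 against stage 11, with a log2 change of 1.33 ± 0.28 (adjusted p = 0.000199, edgeR), while 16.3% of genes tested were called higher. It was 0.66 with library size alone, which was still called.

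Unlike HAND1 and MYBPC3, ACTC1 had no call between stages 12 and 14. Its level was 50.1, 63.5 and 75.3 TPM at stage 14, 73.4, 66.3 and 90.2 TPM at stage 16, and 46.1, 86.6 and 80.2 TPM at stage 19. The libraries of stages 14 and 19 overlapped those of stage 12, and the 3 of stage 16 lay above them. The change from stage 12 to 14 was 0.40 ± 0.24 (adjusted p = 0.168, edgeR) and from stage 12 to 19 it was 0.51 ± 0.24 (adjusted p = 0.0587, edgeR). Both crossed the threshold with DESeq2 size factors (0.56 and 0.79) and with the 2 stages fitted alone (0.43 and 0.56), and the second also without stage 19 replicate 1, the lowest of its stage (0.73).

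At stage 24 ACTC1 held 116, 85.7 and 177 TPM. It rose by 0.64 ± 0.24 on the log2 scale over stage 19 (adjusted p = 0.0435, edgeR), a step at which 11.0% of genes tested were called higher and the libraries of the stages overlapped. The call was lost without stage 19 replicate 1 (0.43), stage 19 replicate 3 (0.75), stage 24 replicate 1 (0.68) or stage 24 replicate 3 (0.40), and in a fit of the 2 stages alone (0.70). Stage 24 replicate 3 was the highest of its stage for ACTC1, for MYBPC3 and for the skeletal muscle sum, which was 561, 625 and 1440 TPM in the 3 embryos. It was also the highest for the sums of cardiac sarcomere genes (136, 162 and 222 TPM) and smooth muscle genes (32.8, 48.6 and 80.8 TPM). The part of each kind of muscle RNA in these values was not tested. At stage 40 the embryos held 677, 635 and 694 TPM of ACTC1, a rise of 4.58-fold over stage 24 (log2 change 2.19 ± 0.24, adjusted p = 6.06e-10, edgeR) with no overlap.

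**Figure D2:**
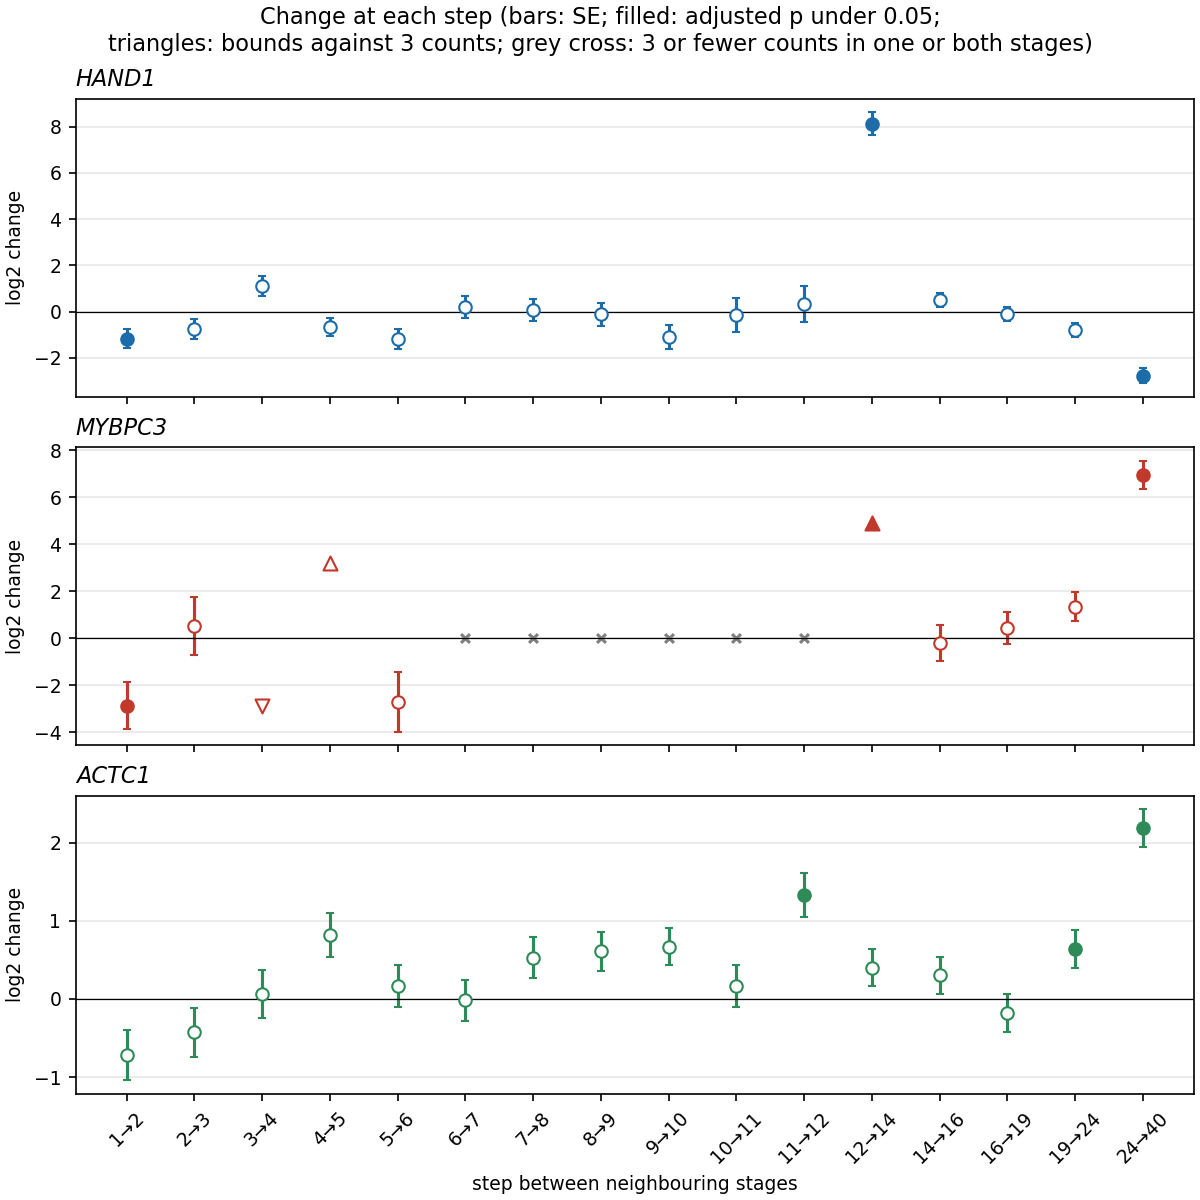
Log2 change at each of the 16 steps between neighbouring stages on the vertical axis, 1 panel per gene with its own scale, with bars for the SE; filled symbols passed the adjusted threshold of 0.05, triangles are bounds against 3 counts, and grey crosses at 0 only mark steps where a stage had 3 or fewer MYBPC3 counts. HAND1 and MYBPC3 share filled steps at 1 to 2, 12 to 14 and 24 to 40, where HAND1 falls at the last and MYBPC3 rises, and ACTC1 has its filled steps at 11 to 12, 19 to 24 and 24 to 40.

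Set side by side, 2 of the 3 genes were called lower from stage 1 to 8 and none higher, with 27.1% of all genes tested called lower and 59.9% in either direction. From stage 8 to 12 only ACTC1 was called, higher, with a background of 31.0% called higher and 62.5% either way. Between stages 12 and 19 HAND1 (372-fold, log2 change 8.54 ± 0.49, adjusted p = 4.61e-17, edgeR; log2 change 9.43 without stage 12 replicate 1) and MYBPC3 were called higher, against 32.8% of genes, with 65.3% called either way. From stage 24 to 40 MYBPC3 and ACTC1 were called higher and HAND1 lower, against 37.7% higher and 30.9% lower. With 24.1% to 68.6% of genes called in either direction at the 5 main comparisons, a call by itself does not set these genes apart.

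The levels of the genes relative to one another also differed between stages, though no test of this passed the threshold. Per library, the log2 ratio of HAND1 to MYBPC3 was 4.98 ± 1.01 (SD, n = 3) at stage 24 and −4.88 ± 0.27 at stage 40. The ratio of HAND1 to ACTC1 was 0.02 ± 0.50 at stage 24 and −4.97 ± 0.12 at stage 40, and that of MYBPC3 to ACTC1 was −4.96 ± 0.90 and then −0.09 ± 0.18. MYBPC3 thus went from far below ACTC1 to about the same TPM, while HAND1 went from the same TPM as ACTC1 to far below it. The libraries of stages 24 and 40 did not overlap in any of the 3 ratios, and how many other gene pairs do the same was not counted. For each ratio at this step an exact two-sided permutation test gave p = 0.1, the smallest value that 3 embryos against 3 allow. It was 0.129 after adjustment over 9 such tests. Between stages 19 and 24 the libraries overlapped for HAND1 to MYBPC3 (p = 0.2, permutation test) and for MYBPC3 to ACTC1 (p = 0.3, permutation test). They did not overlap for HAND1 to ACTC1, which was 1.40 ± 0.89 at stage 19 (p = 0.1, permutation test). Between stages 12 and 19 none of the 3 ratios overlapped (p = 0.1 for each, permutation test), with MYBPC3 at 0 at stage 12.

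By a rule of 1 TPM or more in every library of a stage and of all later ones, HAND1 came on for good at stage 14, MYBPC3 at stage 24 and ACTC1 at stage 1. HAND1 kept stage 14 at limits of 0.5, 2 and 5 TPM and with the stage mean in place of every library. For MYBPC3 the stage was 40 at 2 or 5 TPM and 14 by the stage mean, and for ACTC1 it was 5 at 5 TPM. Over the 17 stage means the Pearson correlation of log2(TPM + 1) was 0.38 between HAND1 and MYBPC3, 0.52 between HAND1 and ACTC1 and 0.73 between MYBPC3 and ACTC1. These are descriptions, since the 3 genes share the same libraries.

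Each gene has close relatives in the table, and reads of near-identical genes, above all the actins, may have been divided between them by the authors' counting. HAND2, the other HAND factor, rose over the same interval, from 0.349 ± 0.336 TPM at stage 12 to 9.69 ± 3.33 TPM at stage 19 (log2 change 5.03 ± 0.71, adjusted p = 2.03e-07, edgeR). HAND1 made up 94.2% ± 0.735 (SD, n = 3) of the summed HAND1 and HAND2 TPM at stage 14 and 93.3% ± 0.638 at stage 24. At stage 40 HAND2 held 10.2, 10.3 and 12.2 TPM against 9.47, 9.22 and 7.90 TPM at stage 24, and its change was not called (log2 change 0.06 ± 0.54, adjusted p = 0.924, edgeR). With HAND1 lower, its share stood at 66.1% ± 3.6. The difference between the HAND1 and HAND2 changes was not itself tested.

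Among the myosin-binding proteins, MYBPC1 is the slow skeletal form, MYBPC2 the fast skeletal form and MYBPH a shorter relative. All 3 rose from stage 24 to stage 40 alongside MYBPC3. MYBPH reached 1010 ± 158 TPM (303-fold, adjusted p = 6.81e-16, edgeR), MYBPC2 94.0 ± 19 TPM (121-fold, adjusted p = 7.84e-11, edgeR) and MYBPC1 2.54 ± 1.63 TPM (9.56-fold, adjusted p = 0.0164, edgeR). The MYBPC1 call was lost with the DESeq2 Wald test (adjusted p = 0.729). Of the 3 MYBPC genes, MYBPC3 held 86.8% ± 1.35 of the summed TPM at stage 40. MYBPHL was not among the genes tested and stood at 2.56, 4.13 and 4.53 TPM at stage 40.

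For ACTC1 the most telling relative is ACTA1, the alpha-actin of skeletal muscle. ACTC1 was the larger of the pair in the mean of every stage from 2 to 24, with 97.5% ± 0.195 of their summed TPM at stage 16 and 84.2% ± 7.85 at stage 24, where ACTA1 held 8.53, 19.7 and 49.0 TPM. At stage 40 ACTA1 stood at 3660, 4830 and 4630 TPM, and the share of ACTC1 was 13.4% ± 2.02. ACTA1 rose 149-fold at that step (log2 change 7.22 ± 0.76, adjusted p = 1.62e-10, edgeR). The smooth muscle actins ACTA2 (108 ± 20.5 TPM) and ACTG2 (38.4 ± 8.85 TPM) also rose from 3 or fewer counts per stage (adjusted p = 1.74e-10 and 2.18e-05, edgeR), the second of which was not called by the DESeq2 Wald test (adjusted p = 0.218).

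The cytoplasmic actins ACTB and ACTG1, which all cells use, were more abundant than ACTC1 at every stage. They rose between stages 8 and 12 as ACTC1 did, ACTB by 3.93 ± 0.24 and ACTG1 by 2.53 ± 0.21 on the log2 scale (adjusted p = 1.58e-16 and 3.27e-13, edgeR). With library size alone these were 2.95 and 1.55. From stage 24 to 40 neither was called (0.35 ± 0.22 and 0.11 ± 0.20, adjusted p = 0.144 and 0.637, edgeR), but both were with library size alone (0.77 and 0.52), and ACTB with the 2 stages fitted alone (0.30). ACTC1 held 2.99% ± 0.311 of the TPM of all 6 actin genes at stage 12 and 4.36% ± 0.228 at stage 8. Its climb between these 2 stages thus ran beside a larger one of ACTB. Before that its share had gone up, from 1.93% ± 0.137 at stage 3. How many ACTC1 reads in either span come from other actins was not tested.

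**Figure D3:**
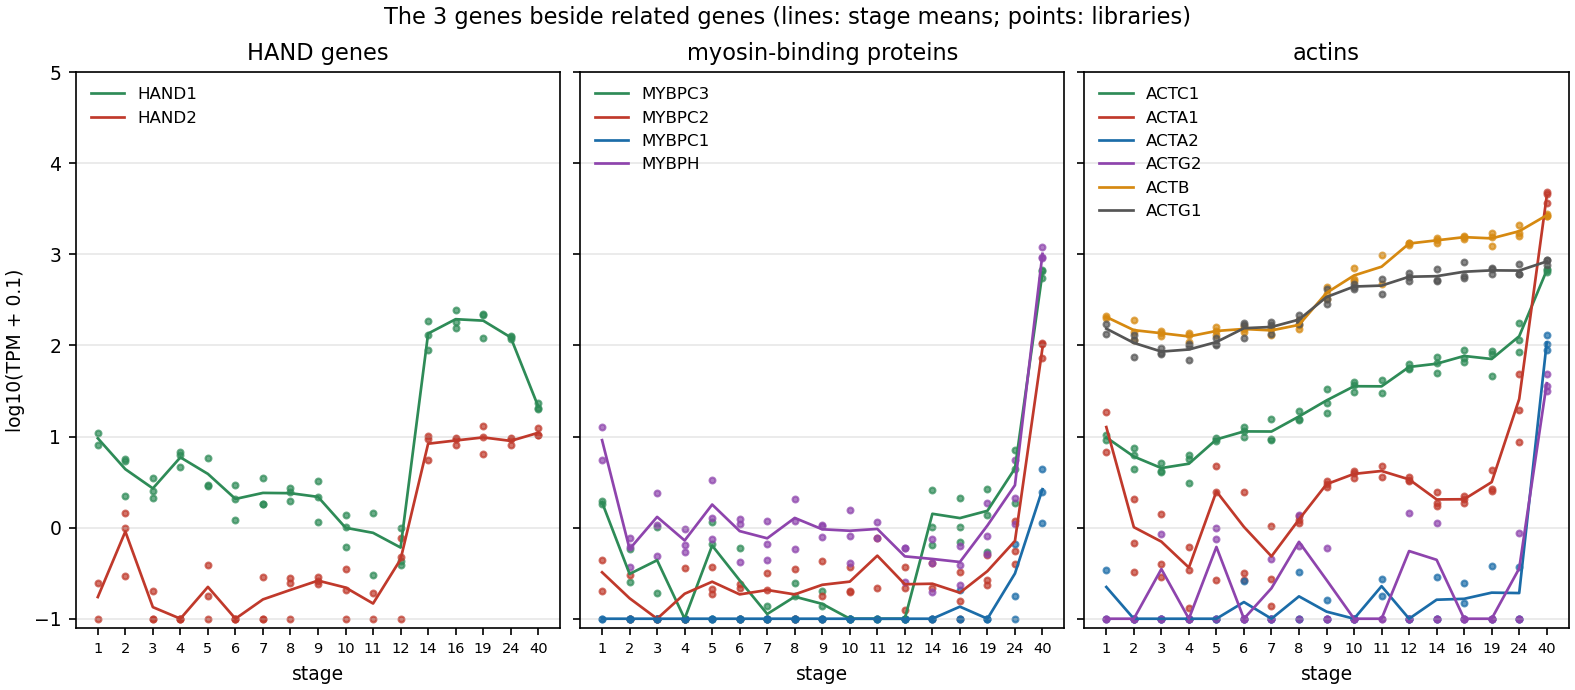
Levels of HAND1, MYBPC3 and ACTC1 beside related genes, as log10(TPM + 0.1) on the vertical axis against stage; lines are stage means and points are libraries. HAND1 lies above HAND2 from stage 14 to stage 40, and MYBPC3 and MYBPH have means of 631 and 1010 TPM at stage 40. The ACTA1 mean is above that of ACTC1 at stages 1 and 40 (ACTC1 shares of 46.6% and 13.4% in the pair). The 2 libraries of stage 1 disagree in this order (ACTC1 shares of 60.6% and 32.6%).

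The interval in which HAND1 rose was one in which many mesodermal regulators rose too. At the step of the HAND1 jump, stage 12 to 14, 13 of 22 tested cardiac transcription factors were called higher and 0 lower (median log2 change 1.76). Of 14 lateral plate mesoderm genes 8 were called higher and 0 lower at that step (median 2.52). Among all genes tested 27.4% were called higher there, with a median of 0.0. From stage 12 to 19, 15 of 22 tested cardiac transcription factors were called higher and 0 lower, beside 32.8% of all genes called higher, with a median log2 change of 2.67 against 0.0 over all genes (2.73 with genes at 0 counts set at their bound). MEF2C, a MADS-box factor needed for heart development in the mouse, rose by 4.89 ± 0.38 to 9.24 ± 0.865 TPM, and GATA5, a zinc-finger factor of heart and endoderm, by 4.64 ± 0.51 to 49.3 ± 10.1 TPM (adjusted p = 1.28e-13 and 6.05e-10, edgeR). NKX2-5, the homeobox factor of heart progenitors, went from 2.21, 2.04 and 1.72 TPM at stage 12 to 25.5, 15.9 and 18.1 TPM at stage 19. Of 14 lateral plate mesoderm genes 10 were called higher and 1 lower, with a median of 2.96. TAL1, a factor of blood and vessel progenitors, rose by 7.34 ± 0.56 (adjusted p = 6.35e-14, edgeR), and PRRX1, a homeobox factor of lateral mesoderm, rose at least 218-fold (adjusted p = 2.88e-10, edgeR). KDR, a receptor for vascular endothelial growth factor, was the one that fell (−1.62 ± 0.57, adjusted p = 0.013, edgeR), a call lost with the DESeq2 Wald test (−1.33). Some genes stand in more than 1 list, HAND2, GATA4, GATA5 and TBX5 among them.

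Some genes of the cardiac transcription factor list had risen earlier, and in which tissue they rose was not tested. Between stages 8 and 12, when HAND1 was at 3.12 TPM or less in every library, 12 of the 22 cardiac transcription factors were called higher and 5 lower, beside 31.0% of all genes called higher, with a median of 2.15 against 0.0 over all genes. GATA6 rose by 9.62 ± 0.72 to 109 ± 10.1 TPM (adjusted p = 2.14e-14, edgeR), and GATA4 stood at 130, 99.9 and 109 TPM at stage 12 (adjusted p = 2.21e-11, edgeR). MEF2A fell by 4.02 ± 0.32 and SRF, the factor that binds actin gene promoters, by 1.25 ± 0.18 (adjusted p = 9.33e-14 and 9.24e-08, edgeR). With library size alone GATA6 rose by 8.65, and MEF2A and SRF fell by 5.00 and 2.23.

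The helix-loop-helix proteins that can pair with HAND1, or that hold its partners away, moved in both directions. From stage 12 to 19, 6 of 9 tested were called higher and 1 lower, beside 32.8% of all genes called higher. The median was 1.58 against 0.0 over all genes. TWIST2 rose by 2.77 ± 0.38 to 19.6 ± 7.34 TPM, and TCF3, an E protein, fell by 0.34 ± 0.12 to 38.0 ± 4 TPM (adjusted p = 7.02e-08 and 0.0108, edgeR). The TCF3 call was lost with DESeq2 size factors (−0.05). From stage 24 to 40, when HAND1 fell, 1 was called higher and 4 lower, beside 30.9% of all genes called lower, with a median of −0.46 against 0.12 over all genes. TCF3 fell by 1.14 ± 0.12 and TCF12 by 1.44 ± 0.17, whereas TCF4 rose by 1.22 ± 0.27 (adjusted p = 1.15e-10, 1.47e-09 and 0.000128, edgeR).

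When HAND1 fell late, other regulators moved in both directions. From stage 24 to 40, 8 of 22 cardiac transcription factors were called lower and 3 higher, beside 30.9% and 37.7% of all genes tested, with a median of −0.50 against 0.12 over all genes. With library size alone 5 were lower and 6 higher, and the DESeq2 Wald test called 4 lower. The share called lower was thus near that of all genes. NKX2-5 fell by 2.51 ± 0.53 to 3.98 ± 0.162 TPM and GATA5 by 3.06 ± 0.46 to 6.75 ± 0.784 TPM (adjusted p = 9.48e-05 and 4.2e-07, edgeR), while MEF2A rose by 2.21 ± 0.28 and MEF2D by 2.70 ± 0.41 (adjusted p = 1.46e-08 and 3.73e-07, edgeR). Of the lateral plate mesoderm genes 7 were called lower and 2 higher, with a median of −0.90. TAL1 fell by 3.52 ± 0.43 (adjusted p = 4.49e-09, edgeR). Skeletal muscle genes, whose sum was 561 to 1440 TPM at stage 24, summed to 47000 to 61800 TPM at stage 40, and whether these regulators fell in their own cells was not tested.

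Most sarcomere genes rose at the step that took MYBPC3 to its highest level. From stage 24 to 40, 22 of 26 tested cardiac sarcomere genes were called higher and 0 lower, beside 37.7% of all genes called higher, with a median log2 change of 4.15 against 0.12 over all genes. TPM1, alpha-tropomyosin, rose by 4.91 ± 0.15 to 1510 ± 260 TPM (adjusted p = 9.26e-25, edgeR). The atrial and embryonic myosin heavy chain MYH6 held 0.195, 0.568 and 2.91 TPM at stage 24 and 306, 448 and 324 TPM at stage 40, cardiac troponin T (TNNT2) went from 3.00, 1.71 and 9.21 to 26.4, 28.1 and 24.5 TPM, and the atrial light chain MYL7 from 8.47, 7.50 and 8.36 to 65.5, 58.8 and 58.7 TPM. At stage 40 MYBPC3 and ACTC1 were thus many times more abundant than TNNT2 or MYL7. That does not hold for the whole list. TPM1 lay above both members, and the stage 40 means were 633 TPM for DES, 61.8 TPM for LDB3 and 37.3 TPM for MYL4.

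Skeletal and smooth muscle genes rose over the same interval. Of 24 tested skeletal muscle genes 18 were called higher and 5 lower (median 5.82). Of 10 smooth muscle genes 9 were called higher and 0 lower (median 5.10). Among all genes tested from stage 24 to 40, calls of a rise made up 37.7% and calls of a fall 30.9%. Their median log2 change was 0.12. The cardiac sarcomere list summed to 136 to 222 TPM at stage 24 and 3550 to 4580 TPM at stage 40, well under the skeletal sum. CASQ1, the calcium store protein of fast muscle, rose 1160-fold and ATP2A1, its calcium pump, 40.3-fold (adjusted p = 2e-15 and 3.42e-20, edgeR). The myogenic factors MYOD1 and PAX7 fell (−3.50 ± 0.65 and −1.73 ± 0.25, adjusted p = 3.27e-05 and 2.45e-07, edgeR). MYOG, another myogenic factor, went from 1.13, 3.56 and 5.25 TPM at stage 24 to 33.0, 28.8 and 30.3 TPM at stage 40. Of 20 cardiac calcium, conduction and hormone genes 15 were called higher and 2 lower (median 2.30). The gap junction protein GJA1 rose by 5.33 ± 0.58, and the calcium pump ATP2A2 fell by 0.72 ± 0.15 (adjusted p = 2.99e-09 and 0.000105, edgeR). The ATP2A2 call was lost with library size alone (−0.30). ATP2A2, listed here for the heart, had its highest stage mean at stage 1 (251 TPM). How much of the MYBPC3 and ACTC1 of stage 40 lies in heart and how much in other muscle was not tested.

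**Figure D4:**
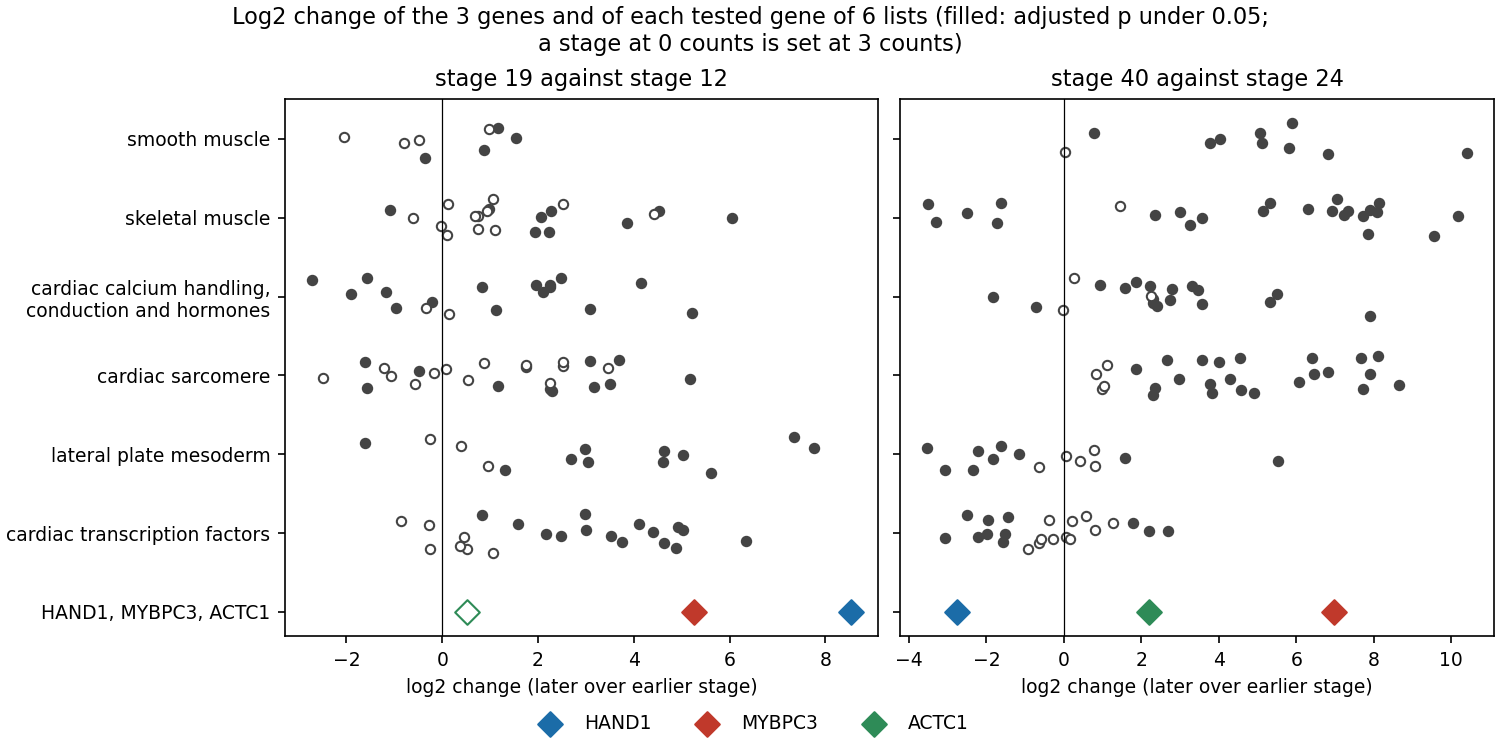
Log2 change (horizontal axis) of each tested gene of 6 lists, and of HAND1, MYBPC3 and ACTC1 as diamonds in the bottom row, for stage 19 against 12 and stage 40 against 24; filled symbols passed the adjusted threshold of 0.05, genes at 0 counts in one stage are drawn at their bound, and genes at 3 or fewer counts in both are left out. HAND1 lies at 8.54 on the left and −2.77 on the right, where 8 of 22 cardiac transcription factors were called lower and 3 higher. On the right MYBPC3 at 6.96 lies among the muscle genes, and ACTC1 at 2.19 lies below the medians of the cardiac sarcomere (4.15), smooth muscle (5.10) and skeletal muscle (5.82) lists.

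At the intermediate steps the sarcomere list moved less. From stage 12 to 19, 9 of 26 sarcomere genes were called higher and 3 lower (median 1.45 against 0.0 over all genes), a share near the 32.8% of all genes called higher. TTN, the giant spring protein titin, rose by 3.16 ± 0.38 and the atrial light chain MYL4 by 3.69 ± 0.60, while the Z-disc protein LDB3 fell by 1.62 ± 0.42 (adjusted p = 3.5e-09, 1.67e-06 and 0.000916, edgeR). From stage 19 to 24, 6 were called higher and 0 lower (median 0.93 against −0.02 over all genes, or 0.76 with bounds). DES, the muscle intermediate filament protein desmin, rose by 2.82 ± 0.30 and TTN by 2.65 ± 0.34 (adjusted p = 2.69e-08 and 7.32e-07, edgeR). In the skeletal list of 24 tested genes 8 were called higher and 1 lower at the first of these steps (median 1.02), again near that 32.8%, and 11 and 0 at the second (median 2.00), where 11.0% of all genes were called higher.

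The genes whose course over the 17 stage means was most like that of each member were different for each. For HAND1 they were ANKRD6 (Pearson r = 0.973), OSR2 (0.972), CDH6 (0.964), FGF10 (0.960) and EN2 (0.958), all low at stage 12 and high at stages 14 to 24. OSR2 is a zinc-finger factor, CDH6 a cadherin and FGF10 a growth factor. MYBPC3 was matched by COL9A1, a chain of cartilage collagen (0.998), TMEM204 (0.995), TINAG (0.993), AGMAT (0.993) and HMP19 (0.992). COL9A1 rose from 5.15 TPM at stage 24 to 558 TPM at stage 40. ACTC1 was matched by ERVWE1 (0.987), TMEM215 (0.980), MVP, the major vault protein (0.974), CNN2, a calponin (0.968), and GAMT, an enzyme of creatine synthesis (0.963). None of these 15 is in the heart or muscle lists, the search covered 10659 genes, and the stage means share the same libraries. With Spearman correlation in place of Pearson, 0 of the 5 named for HAND1, 0 for MYBPC3 and 1 for ACTC1 were among the top 5.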

How the data were processed

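Poly(A) RNA of 49 single axolotl embryos was read as paired 101-base reads, per the labels' protocols. The authors deposited expected counts per gene (estimated counts, which need not be whole), with no normalization between libraries. They also deposited TPM, scaled for gene length and library total. The submitters' processing notes list RSEM 1.1.6 beside Bowtie 0.12.1 without a role. The reference is not given in sources used here. Another 5 columns of total RNA libraries were not used here. Rounded expected counts went into edgeR 4.0.16 under R 4.3.3 (filterByExpr by stage, TMM, quasi-likelihood F test, all stages in one fit). Of 15631 genes 14437 were tested, and the rest held 0.00288% of counts. The common dispersion was 0.0429. Each SE was derived from the F statistic. Each embryo is a separate replicate, and 47 pairs of libraries of one stage had a chi-square per degree of freedom of 8.02 or more, so none was treated as a repeat of another.

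The members and the 9 gene lists were chosen with earlier results of these data known. The text names the 3 members, all actins and myosin-binding proteins, up to 2 called genes each way with the smallest adjusted p per list and main comparison (only part of these are described), and the 5 genes of most like course with 10 TPM or more in their highest stage. MYH6, TNNT2, MYL7 and FOXF1, and values of NKX2-5, HAND2, TBX5, NPPA and MYOG outside that rule, were added after their values were seen. Genes with 0 counts at a stage were set at a floor of 3 counts over the stage, and 1 to 3 counts got a 95% exact interval; floors and intervals cover counting error only. Log2 ratios between members used TPM + 0.1 and SciPy 1.17.1. Alternatives were DESeq2 1.42.0 size factors and Wald test, library size alone, no filter, the 2 stages alone, the replicate number as a block, left-out libraries, other TPM limits and pseudocounts, and stage 2 in place of stage 1, the last chosen after seeing the data. No label ties replicate numbers to a clutch or batch.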

Additional observations from a re-analysis of the deposited data

How the results depend on the processing

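Over all results and alternatives, 705 values kept the direction and the side of the threshold (for counts, stayed within 1.5 times), and 12 changed sign, all at steps that were not called. With library size alone the change of ACTC1 was 0.01 from stage 6 to 7 and −0.02 from stage 10 to 11, and that of HAND1 was −0.43 from stage 11 to 12. Leaving out each library in turn gave HAND1 −0.01 to 0.18 (stage 8 against 7), −1.70 to 0.57 (11 against 10), −0.56 to 1.91 (12 against 11) and −0.27 to 0.14 (19 against 16), MYBPC3 −0.51 to 0.54 (16 against 14) and −0.24 to 0.75 (19 against 16), and ACTC1 −0.34 to 0.54 (11 against 10) and −0.32 to 0.03 (19 against 16). The cause of these and the following changes was not tested.

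Stage 8 against stage 2 gave MYBPC3 a fold of −4.90 (negative for lower; call lost) and ACTC1 1.13 (call gained). HAND1 at stage 12 against 8 was −2.01 with library size alone, and −1.91 to −0.76 with libraries left out. ACTC1 gained calls at stage 19 against 12 (0.79 with DESeq2 size factors and Wald test, 0.56 with the 2 stages alone, 0.37 to 0.73 with libraries left out), 14 against 12 (0.56, 0.56 and 0.43), 2 against 1 (−0.83 with size factors and Wald test, −0.80 with library size alone, −0.93 to −0.56 with libraries left out) and 9 against 8 (0.68, Wald test). Calls were lost with the 2 stages alone for ACTC1 at stage 24 against 19 (0.70) and at stage 2 against 1 for HAND1 (−1.23) and MYBPC3 (−2.98, and −3.08 with the Wald test). Left-out libraries gave ACTC1 0.40 to 0.82, HAND1 −1.03 to −0.62 and MYBPC3 0.86 to 2.01 at stage 24 against 19, and at stage 2 against 1 HAND1 −1.44 to −0.83 and MYBPC3 −4.16 to −2.41. MYBPC3 came on at stage 40 at limits of 2 and 5 TPM and 14 by the mean, and ACTC1 at stage 5 at 5 TPM.

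Scaling moved the median of all genes: by −0.86 (stage 12 against 8), −0.66 (12 against 11), −0.23 (14 against 12), 0.20 (8 against 1), 0.19 (24 against 19) and 0.42 (40 against 24) with library size alone, and by 0.28 (19 against 12) and 0.11 (14 against 12) with DESeq2 size factors. Genes called higher and lower went from 4471 and 4547 to 1383 and 8193 at stage 12 against 8, from 1589 and 1889 to 2168 and 723 at 24 against 19, and from 5442 and 4460 to 6842 and 2775 at 40 against 24 with library size alone. With size factors they went from 4737 and 4694 to 5635 and 3513 at 19 against 12. The 2 stages alone gave 719 lower at 24 against 19, and left-out libraries gave 828 to 1696 higher and 980 to 2051 lower, the lowest counts both without stage 24 replicate 3. List counts moved for cardiac transcription factors (1 lower at 19 against 12, 6 higher and 5 lower at 40 against 24 with library size alone, 4 lower with the Wald test), lateral plate mesoderm (0 lower at 19 against 12, Wald test), HAND1 partners (0 lower at 19 against 12 with size factors and the Wald test, 2 with library size alone, and 3 higher at 40 against 24) and calcium genes (1 lower, library size alone).

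With the replicate number as a block HAND1 changed by 8.13 at stage 14 against 12, and no call of a member changed. The numbers did not pair the embryos: deviations of same-numbered libraries correlated at −0.0896 to 0.0557. Libraries of stages 3 to 7, 9, 10 and 16 were not left out in turn, and no fit of the 2 stages alone was possible for MYBPC3 where the filter removed it. Counts of 3 or fewer limit MYBPC3 at stage 4 and from stage 7 to stage 12, and 2 libraries limit stages 1 and 11.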

Other observations

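HAND1 differed more between embryos of stage 14 (coefficient of variation 35.4%, n = 3) and stage 19 (30.4%) than between those of stage 24 (3.34%). ACTC1 went from 36.8% at stage 24 to 4.57% at stage 40, and MYBPC3 from 60.0% at stage 24 to 10.2% at stage 40. With 3 embryos a stage, the differences between these spreads were not tested.

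TBX5, a heart and forelimb factor of the lateral plate, was listed at 0.348, 0.617 and 0.309 TPM at stage 19, 1.58, 3.23 and 2.25 TPM at stage 24 and 4.59, 4.99 and 4.83 TPM at stage 40. FOXF1, a forkhead factor of visceral mesoderm, held 6.24, 2.76 and 3.63 TPM at stage 14 and 10.8, 11.2 and 11.0 TPM at stage 40, where HAND1 was down to about 20 TPM. NPPA, the atrial natriuretic peptide gene, held 16.9, 13.2 and 10.7 TPM at stage 40 against 1.51, 2.39 and 3.09 TPM at stage 24.

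Over the 17 stage means MYBPC3 had a Pearson correlation of 0.95 with MYH6, 0.93 with TNNT2, 0.86 with MYL7 and 0.96 with the skeletal actin ACTA1. ACTC1 had one of 0.93 with MYL7, 0.84 with TNNT2, 0.76 with ACTA1 and 0.56 with MYH6. HAND1 had 0.91 with HAND2 and 0.83 with NKX2-5. These describe stage means from the same libraries, and many genes came closer. Of 10659 compared, ACTA1 ranked 365, MYH6 417, TNNT2 603 and MYL7 914 in likeness to MYBPC3. In likeness to ACTC1, MYL7 ranked 52, TNNT2 450, ACTA1 1162 and MYH6 2477. In likeness to HAND1, HAND2 ranked 112 and NKX2-5 412. COL9A1, a cartilage gene, had 0.998 with MYBPC3.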
